A study of Mus musculus with 4 samples.

Results

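The genes described here encode the proteins of the cytosolic ribosome and their close paralogs, in RNA from mouse spleen T cells. They were taken by symbol: all rows named Rpl, Rps or Rplp with a number (and an optional letter or paralog suffix) plus Rpsa, without the S6 kinases whose names begin Rps6k. The rule found 84 genes among 22482 used, of which 52 carry large subunit names and 32 small subunit names. FPKM, the unit of the files, counts fragments scaled to transcript length and library size, and 81 of the 84 reached 1 FPKM in some library.

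The series holds 4 libraries, 1 per group, of 2 sorted cell types in 2 genotypes on a C57BL/6 background. Invariant natural killer T (iNKT) cells, T cells that recognise lipids presented by CD1d, were sorted by T cell receptor beta and a CD1d tetramer carrying PBS-57. CD44-high CD4+ T cells (CD44hi), mostly antigen-experienced helper cells, were sorted by T cell receptor beta, CD44 and CD4. WT mice and Ezh2fl/fl CD4-Cre mice (KO) were used; Ezh2 is the enzyme of Polycomb repressive complex 2 that methylates histone H3. Cre driven by CD4 acts from the thymus onward in both CD4 and CD8 lineages and in iNKT cells, so the deletion can precede the maturation of either cell type. The labels name no Cre or floxed allele in the WT mice, and give neither the age nor the number of mice per library. Ezh2 itself was listed at 15.3 FPKM in WT and 16.8 in KO iNKT cells, and 28.9 in WT and 18.5 in KO CD44hi cells, a value over the whole gene that does not check the deletion of its floxed part.

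A ribosome joins a large and a small subunit, each built from ribosomal RNA and one copy of most of its proteins, so cells usually make these proteins in balanced amounts. Their messenger RNAs are among the most abundant in lymphocytes and begin with a run of pyrimidines, the 5′ terminal oligopyrimidine (TOP) tract, through which mTOR signalling controls their translation. Resting T cells hold few ribosomes and make more when they are activated and divide. Some ribosomal proteins have paralogs, often restricted to testis or muscle, that can take the place of the parent protein. In mice the loss of Rpl22 blocks the development of alpha beta T cells and raises its paralog Rpl22l1.

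Steps between the low values of long genes put the depth at about 5170000 fragments in WT and 5550000 in KO iNKT cells, and 18900000 in WT and 25200000 in KO CD44hi cells. Ratios below carry a 95% interval (exact Clopper-Pearson) from the estimated fragments of both libraries, which covers counting error only. Each group is a single library, so no difference could be checked against replicates and no p-value is given. The T cell markers Cd3d, Cd3e, Cd3g, Cd247, Cd5, Cd2, Cd4 and Cd44 summed to 1737 FPKM in WT and 1668 in KO iNKT cells, and 2420 in WT and 2116 in KO CD44hi cells, with none at 0. The 4 iNKT markers Zbtb16, Klrb1c, Cxcr6 and Il2rb summed to 1488, 452, 267 and 329 FPKM in the same order. The lower sum in KO iNKT came from Il2rb, a cytokine receptor chain (814 FPKM in WT, 198 in KO), Cxcr6, a chemokine receptor (468 and 94.6), and Klrb1c, a lectin receptor (177 and 96.2). Zbtb16, the transcription factor that directs iNKT development, was higher in KO in both cell types, at 28.2 FPKM in WT and 63.1 in KO iNKT cells and at 4.30 and 41.4 in the CD44hi cells, whose gate does not remove iNKT cells. Klrb1c (14.9 FPKM in WT CD44hi, 58.5 in KO CD44hi) and Cxcr6 (69.6 and 127) were also higher in KO CD44hi. Il2rb was lower in KO CD44hi (102 FPKM) than in WT CD44hi (178). Markers of other cells were present in both cell types. The 10 B cell markers summed to 15.1 FPKM in WT iNKT (7 at 0) and 34.2 in KO iNKT (5 at 0), against 1386 in WT CD44hi and 2259 in KO CD44hi (none at 0). The 12 myeloid markers listed summed to 87.9, 74.3, 566 and 892 FPKM, and the 8 red cell and platelet markers to 18.7, 17.9, 150 and 722 FPKM, in that order of libraries. The 7 plasmacytoid dendritic cell markers summed to 154, 118, 154 and 622 FPKM, with Siglech, their surface lectin, at 0 in both iNKT libraries, 11.1 in WT and 75.7 in KO CD44hi. The plasma cell markers summed to 57.7, 50.4, 102 and 225 FPKM, with none at 0. Within the iNKT pair, the 6 CD8 and NK cell markers summed to 3.93 FPKM in WT and 92.9 in KO, most of it Gzma, a granzyme (1.72 and 89.0), and the 6 stromal markers to 22.3 and 54.8 (4 at 0 in each). In the CD44hi pair these lists summed to 22.7 and 24.2 FPKM, and to 40.5 and 47.2. The part of these cells in the results below was not tested.

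Ribosomal protein genes held the largest share of the summed FPKM in KO iNKT and the smallest in WT CD44hi. Their summed level was 57169 FPKM in WT and 63818 in KO iNKT cells, and 43388 in WT and 53537 in KO CD44hi cells. As a share of each file's sum, this was 12.0% in WT and 14.0% in KO iNKT cells, and 9.84% in WT and 11.8% in KO CD44hi cells. The share was thus higher in KO than in WT in both cell types, and higher in iNKT than in CD44hi in both genotypes. The file sums also contain genes of small RNAs, which held 22.4% of the sum in WT and 18.1% in KO iNKT cells, and 17.8% in WT and 16.02% in KO CD44hi cells. Without the small RNA rows the ribosomal protein share was 15.4% in WT and 17.0% in KO iNKT cells, and 12.0% in WT and 14.1% in KO CD44hi cells. The order of the libraries was the same. FPKM is a relative measure, and in bulk RNA a different mix of cells and a different amount of RNA per cell cannot be told apart.

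**Figure D1:**
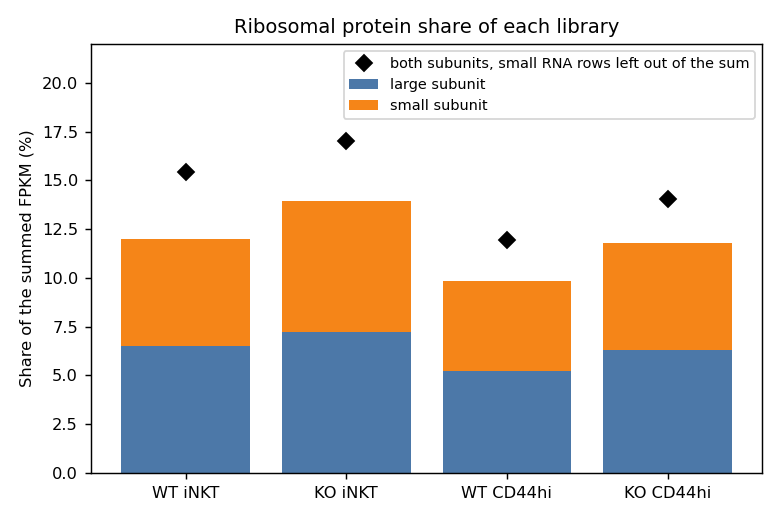
Share of the summed FPKM held by ribosomal protein genes in each of the 4 libraries (1 per group), stacked by subunit, with diamonds for the share after small RNA rows were left out of the sum. The bars reach 12.0% in WT and 14.0% in KO iNKT cells, and 9.84% in WT and 11.8% in KO CD44hi cells.

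Both subunits contributed to these shares in similar proportion. The small subunit genes summed to 0.847 of the large subunit genes in WT and 0.924 in KO iNKT cells, and 0.887 in WT and 0.868 in KO CD44hi cells. The 10 most abundant members held 32.9% of the members' sum in WT and 32.7% in KO iNKT cells, and 30.8% in WT and 32.0% in KO CD44hi cells. Of the 100 most abundant genes, 47 were ribosomal protein genes in WT and 52 in KO iNKT cells, and 39 in WT and 46 in KO CD44hi cells. The median member was at 576, 645, 422 and 534 FPKM in these libraries.

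The members with the highest mean level were Rplp1, Rps15, Rpl41, Rps18 and Rps9. Rplp1, an acidic protein of the stalk that recruits elongation factors to the large subunit, led in all 4 libraries at 3303 FPKM in WT and 3569 in KO iNKT cells, and 2352 in WT and 3388 in KO CD44hi cells. The other stalk genes were lower than Rplp1 in each library. Rplp0, which anchors the stalk, was at 996, 1297, 933 and 1129 FPKM, and Rplp2 at 1177, 1069, 759 and 904 FPKM, in the same order. Rps15, a small subunit protein, was at 1803, 1894, 1883 and 2192 FPKM, so that only KO CD44hi stood apart from the other libraries. Rpl41, the shortest protein of the family, was at 1905, 2017, 1422 and 1941 FPKM, with WT CD44hi alone below the rest. Rps9, a small subunit protein, was at 1944, 1874, 1185 and 1568 FPKM, with both iNKT libraries above both CD44hi libraries.

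**Figure D2:**
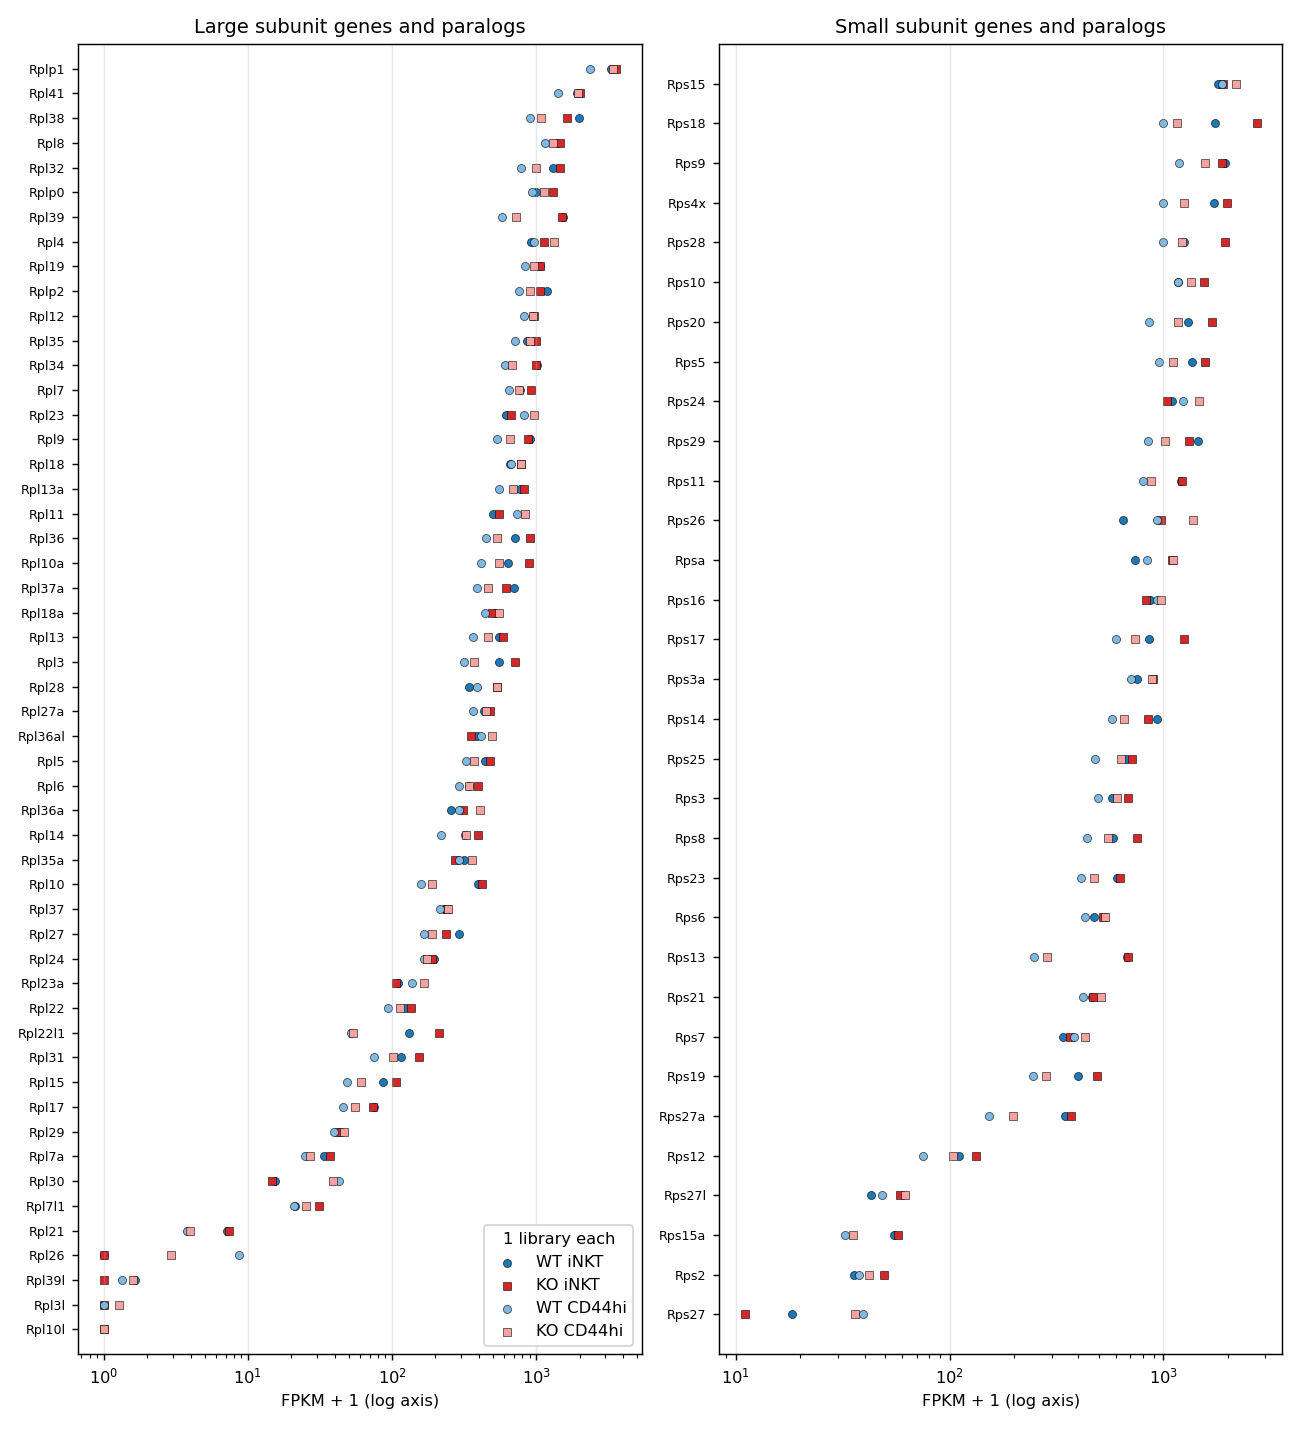
FPKM + 1 on a log axis for each of the 84 genes in the 4 libraries, large subunit names on the left and small subunit names on the right, ordered by mean level; each point is 1 library. In each library 65 to 70 genes lie at 100 FPKM or more, while a tail of low members, among them Rpl21, Rpl26, Rpl30 and Rps27, falls far below their partners.

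Although ribosomal proteins are needed in like amounts, the listed levels spanned a wide range, and genes with many pseudogene copies were among the lowest. Processed pseudogenes are copies of messenger RNAs pasted back into the genome, and reads that match several places cannot be placed with certainty; how they were handled is not given in the sources used here. Rpl7a shared a stretch of 50 bases with 121 annotated pseudogenes and was at 32.9 FPKM in WT and 36.1 in KO iNKT cells, and 23.8 in WT and 25.8 in KO CD44hi cells. Rpl21 had 81 such copies and was at 6.10, 6.36, 2.76 and 2.96 FPKM in the same order. The 5 members with 50 or more copies (Rpl7a, Rpl21, Rpl29, Rps2 and Rpl17) had mean levels between 4.55 and 61.4 FPKM, with a median of 40.1. The 27 measured members with at most 5 copies had a median of 752 FPKM, the 38 members with 6 to 15 copies a median of 653, and the 11 with 16 to 28 copies a median of 307. Across the 81 measured members, Spearman's rho between the number of copies and the mean level was -0.45, a description over genes that share the same libraries. There were exceptions in both directions: Rpsa, a small subunit protein also known as the laminin receptor, had 27 copies and a mean level of 946 FPKM, and Rpl26 had 12 copies and a mean of 2.39 FPKM. Low levels of such genes are therefore uncertain as measures of their messenger RNA. Abundant members shared sequence as well. Stretches of 50 bases found in no other annotated gene made up 13.1% of Rps18, 7.88% of Rpl10 and 17.0% of Rps13, against 61.7% of Rps26 and 83.5% of Rpl39. Among low members such stretches made up 1.35% of Rps27, 23.6% of Rpl30, 28.6% of Rpl26 and 73.8% of Rpl21. The counting intervals given below do not cover this uncertainty.

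The files also hold rows under pseudogene names. Rplp2-ps1 was at 854 FPKM in WT and 865 in KO iNKT cells, and 581 in WT and 671 in KO CD44hi cells, below its parent Rplp2 in every library. Rpl31-ps12 was at 282, 353, 380 and 501 FPKM, above its parent Rpl31 at 114, 152, 74.2 and 101 FPKM, and Rps15a-ps4 was at 110, 112, 154 and 165 FPKM, above Rps15a at 54.0, 56.5, 31.4 and 34.4 FPKM. Both of these pseudogene rows were higher in the CD44hi libraries, while their parents were higher in both iNKT libraries. Other rows kept the order of their parents: Rps15a-ps6 was at 151, 163, 122 and 132 FPKM, and Rps19-ps3 at 287, 327, 149 and 182 FPKM beside Rps19 at 396, 489, 244 and 280.

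**Figure D3:**
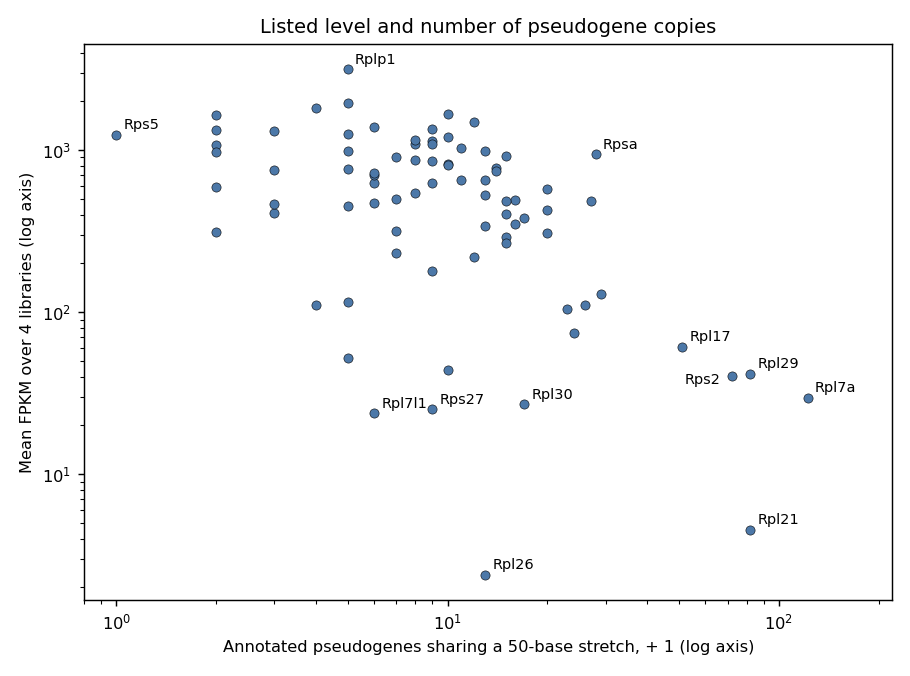
Mean FPKM over the 4 libraries (log axis) against the number of annotated pseudogenes that share a 50-base stretch with the gene, plus 1 (log axis), for the 81 measured members; each point is 1 gene. The 5 genes with 50 or more copies all lie below 100 FPKM.

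The first comparison, between iNKT cells of both genotypes, asks how ribosomal protein RNA differs where Ezh2 was targeted. Most members were slightly higher in KO: 59 of 80 measured members (73.75%) had a positive difference, against 55.9% of all 10818 measured genes. The median difference was 0.11 on the log2(FPKM + 1) scale, against 0.05 over all measured genes. Among 482 other genes with a mean of at least 100 FPKM, 51.7% were above 0 and the median was 0.02. Scaling by the median ratio of all genes lowered the median of the members from 0.11 to 0.065. The median over all measured genes fell with it, from 0.05 to 0.01. No member differed by 2-fold or more in either direction, where 6.08% of all measured genes were higher and 3.35% lower. At a 1.5-fold threshold 5 members were higher (6.25%, against 14.3% of all genes) and 1 was lower (1.25%, against 8.67%). Small subunit genes had a median of 0.17 and large subunit genes of 0.10.

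The 5 members at least 1.5-fold higher in KO iNKT were Rpl22l1, Rps18, Rpl28, Rps28 and Rps26, and the 1 lower was Rps27. Rpl22l1, the paralog of Rpl22, was at 129 FPKM in WT iNKT and 209 in KO iNKT, a ratio of 1.62 (interval 1.37 to 1.91). Rps18, a protein of the small subunit head, was at 1749 and 2735 FPKM, a ratio of 1.56 (1.496 to 1.63). Both genes were lower in each CD44hi library than in either iNKT library. Rpl28, a large subunit protein, was at 342 and 533 FPKM, a ratio of 1.56 (1.46 to 1.67). Rps28, a small subunit protein near the path of the messenger RNA, was at 1252 and 1938 FPKM, a ratio of 1.55 (1.44 to 1.66), and Rps26, its neighbour there, at 643 and 975 FPKM, a ratio of 1.52 (1.42 to 1.61). Rpsa lay just short of the 1.5-fold threshold at 738 and 1099 FPKM, a ratio of 1.49 (1.42 to 1.56).

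Rps27, a zinc finger protein of the small subunit, was listed at 17.4 FPKM in WT iNKT and 9.98 in KO iNKT, but its interval for the ratio of 0.574 ran from 0.206 to 1.49, so the difference was not detectable at this depth. Next lowest were short large subunit genes. Rpl27 was at 290 FPKM in WT iNKT and 237 in KO iNKT, a ratio of 0.816 (0.726 to 0.918). Rpl38, which in mouse embryos favours the translation of certain Hox messenger RNAs, was at 1979 and 1631 FPKM, a ratio of 0.824 (0.769 to 0.882). Rpl35a was at 314 and 270 FPKM, and Rpl37a at 701 and 612. In all, the counting interval lay above 1 for 44 of the 80 measured members and below 1 for 7. The same count was not made over all genes, so it has no share to be set beside. In abundant genes small ratios pass: Rpl8, at a ratio of 1.05 (1.01 to 1.09), is among the 44.

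The stretches around the annotated transcription start of the 5 higher members and of Rps27 show what these genes share in sequence. They are from RefSeq on GRCm38.p6, the assembly called mm10, and each gives 40 bases before and 20 bases from the start, 5′ to 3′ on the gene's strand, with the longest run of C or T that overlaps the 10 bases on either side of the start in capitals. In order, they lie at chr3:28805468-28805527 (plus strand), chr17:33955646-33955705 (minus), chr7:4792925-4792984 (plus), chr17:33824543-33824602 (minus), chr10:128626487-128626546 (minus) and chr3:90213629-90213688 (minus).
Rpl22l1: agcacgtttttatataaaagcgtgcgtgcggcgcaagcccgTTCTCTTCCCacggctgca
Rps18: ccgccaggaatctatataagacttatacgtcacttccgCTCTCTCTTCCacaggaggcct
Rpl28: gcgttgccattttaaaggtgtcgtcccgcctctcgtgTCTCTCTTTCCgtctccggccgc
Rps28: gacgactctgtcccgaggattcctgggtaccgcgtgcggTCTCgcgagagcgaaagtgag
Rps26: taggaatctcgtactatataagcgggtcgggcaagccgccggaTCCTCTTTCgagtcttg
Rps27: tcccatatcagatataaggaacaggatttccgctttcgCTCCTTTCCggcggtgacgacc

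The pyrimidine run was 9 to 11 bases long in Rpl22l1 (10), Rps18 (11), Rpl28 (11) and Rps26 (9), and also 9 in Rps27, the member on the other side; in Rps28 it was 4 at the start that RefSeq lists. Rpl22l1 thus has the run seen in core ribosomal protein genes, and the run does not separate the higher members from Rps27. Over the 64 members with an entry, 29 (45.3%) had a run of at least 8 bases at a listed start, against 15.8% of 27025 genes. The ETS motif CCGGAAG, on either strand of the RefSeq promoter window, was in 26 of the 64 members (40.6%) against 9.93% of all genes. It was present in Rps18 and Rps26 and not in this window of the other 4. The GC box GGGCGG was in 62.5% of the members and 38.2% of all genes, the YY1 motif AAGATGGC in 9.38% and 3.19%, the E-box CACGTG in 9.38% and 8.09%, and TATAAA in 10.9% and 15.7%.

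The same question was put to the CD44hi cells of both genotypes. Here nearly the whole family was higher by a similar, small amount. A positive difference was found in 78 of 81 measured members (96.3%), against 52.4% of all 11353 measured genes. The median of the members was 0.26 on the log2(FPKM + 1) scale, a plain ratio of about 1.20, against a median of 0.01 over all measured genes. The lower and upper quartiles of the members were 0.20 and 0.33. Among 482 other genes with a mean of at least 100 FPKM the median was 0.03, with quartiles of -0.10 and 0.17. No member was 2-fold higher, against 2.44% of all genes, and 1 was 2-fold lower (1.23%, against 1.14% of all genes). At 1.5-fold none was higher (6.43% of all genes) and the same 1 was lower (3.47% of all genes). The summed B cell, myeloid, plasmacytoid and red cell markers were higher in KO CD44hi as well, as given above. Of the myeloid markers, Tyrobp (121 FPKM in WT, 305 in KO), Cst3 (159 and 233) and Fcer1g (95.2 and 155) differed most. The median over the 10 measured myeloid markers was 0.13, with 8 above 0. Lyz2 (34.7 and 33.7) and Csf1r (20.8 and 18.2) were lower in KO CD44hi. Scaling the files to equal sums lowered the median of the members from 0.26 to 0.19. The median over all measured genes fell with it, from 0.01 to -0.05.

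The largest differences in the CD44hi pair were in Rpl14, Rps26, Rplp1, Rpl36a and Rps12. Rpl14, a large subunit protein, was at 219 FPKM in WT CD44hi and 325 in KO CD44hi, a ratio of 1.49 (1.43 to 1.55). Rps26 was at 928 and 1379 FPKM, a ratio of 1.49 (1.45 to 1.53), close to its ratio of 1.52 in the iNKT pair. Rplp1 was at 2352 and 3388 FPKM, a ratio of 1.44 (1.41 to 1.47). These 3 ratios stand just short of the 1.5-fold threshold. Rpl36a, a large subunit protein, was at 291 and 404 FPKM, and Rps12, a small subunit protein, at 74.2 and 103 FPKM, both with a ratio of 1.39.

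The only members not higher in KO CD44hi were Rpl26, Rpl30 and Rps27, all listed far below their partners. Rpl26, the 1 member called, was at 7.65 FPKM in WT CD44hi and 1.92 in KO CD44hi, a ratio of 0.251 (0.135 to 0.457), and in both iNKT libraries its value was below what 1 fragment is worth. Rpl30 was at 41.9 and 37.8 FPKM in the CD44hi pair (ratio 0.901, 0.790 to 1.03) and Rps27 at 38.5 and 34.9 (0.907, 0.698 to 1.19). Of the well measured members, Rpl22l1 differed least: 51.2 FPKM in WT CD44hi and 52.6 in KO CD44hi, a ratio of 1.03 (0.891 to 1.19), with a log2 difference of 0.04 that turned to -0.03 when the files were scaled to equal sums. Rps16 followed, at 936 and 974 FPKM, a ratio of 1.04 (1.02 to 1.06), and its log2 difference turned from 0.06 to -0.01 under that scaling.

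Set side by side, the iNKT and CD44hi pairs showed a broad spread of the members in iNKT and a narrow shift in CD44hi. The quartiles of the members were -0.01 and 0.30 in iNKT, and 0.20 and 0.33 in CD44hi. Those of all measured genes were -0.21 and 0.34 in iNKT, and -0.14 and 0.19 in CD44hi. The spread was thus wider in iNKT over all genes as well, and the iNKT libraries were the shallower ones. KO was above WT in both cell types for 59 of 81 measured members (72.8%, against 30.7% of all genes measured in any library). For 19 members KO was below WT in iNKT and above it in CD44hi, for 3 it was below in both, and for 0 was it above in iNKT and below in CD44hi. These further counts were not made over all genes, so they have no share to be set beside. The 3 include Rpl26, whose direction in iNKT carries no information, since both values lie below 1 fragment. The median difference of the log2 differences (iNKT minus CD44hi) was -0.14 over the 80 members measured in both. Rpl22l1 stood at 0.65 and Rps18 at 0.41, on the side of a larger KO value in iNKT, and Rps27 at -0.61, Rpl38 at -0.52 and Rpl35a at -0.52 on the other. Rpl26 had the largest value, 1.57, which rests on its CD44hi values alone. Across the 80 members the genotype differences of the pairs, which share no library, correlated with a Pearson r of 0.41 and a Spearman rho of 0.36, against 0.10 and 0.09 across 10454 genes measured in both; these are descriptions over genes of the same 4 libraries.

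**Figure D4:**
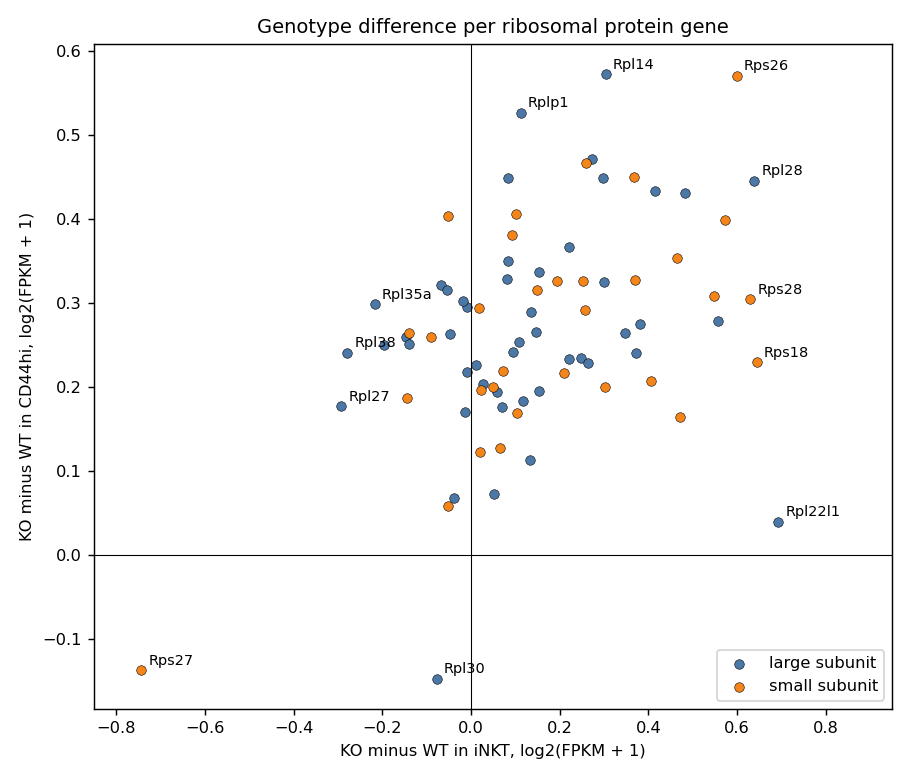
Genotype difference (KO minus WT) on the log2(FPKM + 1) scale in iNKT (horizontal) and in CD44hi (vertical) for the 80 members measured in both pairs; each point is 1 gene, coloured by subunit. In CD44hi 78 of the points lie above 0, while in iNKT they spread from -0.74 (Rps27) to 0.69 (Rpl22l1).

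WT iNKT was compared with WT CD44hi, and KO iNKT with KO CD44hi, to ask how the cell types differ. Members were higher in iNKT in both genotypes. In WT the median log2 difference was 0.41 over 81 measured members, against -0.06 over all 11218 measured genes, and 6 members were 2-fold higher (7.41%, against 3.65% of all genes) and 3 lower (3.70%, against 10.9%). In KO the median was 0.24, against -0.02 over 11470 genes, with 5 members 2-fold higher (6.17%, against 3.02%) and 3 lower (3.70%, against 9.07%). Both iNKT libraries were above both CD44hi libraries for 44 of 81 members (54.3%, against 23.5% of all genes) and below both for 10 (12.3%, against 32.6%). The CD44hi libraries were deeper and held more RNA of other cells, and any batch between the cell types cannot be told apart from the cell type.

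The members 2-fold higher in WT iNKT than in WT CD44hi were Rps13, Rpl39, Rpl22l1, Rpl10, Rps27a and Rpl38. Rps13, a small subunit protein, was at 671 FPKM in WT iNKT and 681 in KO iNKT, against 247 in WT CD44hi and 283 in KO CD44hi. Its iNKT to CD44hi ratio was 2.72 in WT (2.53 to 2.92) and 2.41 in KO (2.26 to 2.57). Rpl39, which lines the exit tunnel, was at 1528 and 1510 FPKM in the iNKT and 581 and 717 in the CD44hi libraries, a ratio of 2.63 in WT (2.51 to 2.75). Rpl10, which is added late in the assembly of the large subunit, was at 391 and 421 FPKM in iNKT and 157 and 187 in CD44hi, a ratio of 2.49 in WT (2.32 to 2.68). For each of these genes the cell types did not overlap. The KO to WT ratios of Rps13, Rpl39 and Rpl10 were 1.02, 0.988 and 1.08 in iNKT, and 1.15, 1.23 and 1.19 in CD44hi. These were smaller differences than those between the cell types. Rps27a, which is made as a fusion with ubiquitin, was at 346 FPKM in WT and 369 in KO iNKT cells, against 151 and 197 in the CD44hi cells. In KO the members past 2-fold were Rpl22l1, Rps13, Rps18, Rpl10 and Rpl39, so that Rps18 (ratio 2.36, 2.28 to 2.43) joined while Rps27a (1.87) and Rpl38 (1.52) stayed short of 2-fold. At 1.5-fold 28 members were higher in WT iNKT (34.6%, against 10.3% of all genes) and 3 lower (3.70%, against 19%), and in KO 18 were higher (22.2%, against 10.5%) and 5 lower (6.17%, against 16.1%).

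A smaller set went the other way. Rpl11, which together with Rpl5 binds the p53 regulator Mdm2 when ribosome assembly fails, was at 498 FPKM in WT iNKT and 554 in KO iNKT, against 730 in WT CD44hi and 836 in KO CD44hi. Rpl23, another large subunit protein, was at 620 and 662 FPKM in iNKT and 821 and 971 in CD44hi. Rpl11 and Rpl23 were thus higher in CD44hi by 1.47-fold (1.39 to 1.55) and 1.32-fold (1.27 to 1.38) in WT, while Rpl5, at 440, 477, 325 and 369 FPKM, was higher in iNKT. Rpl23a, at 109 and 105 FPKM in iNKT and 137 and 165 in CD44hi, was likewise higher in both CD44hi libraries. The members 2-fold lower in iNKT in both genotypes were Rpl26, Rpl30 and Rps27, whose low levels are uncertain. Rpl30 was at 14.5 and 13.7 FPKM in iNKT and 41.9 and 37.8 in CD44hi. Rps26 was lower in iNKT within each genotype (643 against 928 FPKM in WT, 975 against 1379 in KO), but KO iNKT lay above WT CD44hi.

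Of the paralogs whose parent was well measured, Rpl22l1 showed the widest range beside that parent. Rpl22 (chromosome 4, 152325742 to 152334071, plus strand) was at 121 FPKM in WT and 134 in KO iNKT cells, and 92.7 in WT and 112 in KO CD44hi cells. Rpl22l1 (chromosome 3, 28805436 to 28807424, plus strand) was at 129, 209, 51.2 and 52.6 FPKM in the same order. The paralog thus stood at 107% of its parent in WT iNKT and 156% in KO iNKT, but among CD44hi cells at 55.2% in WT and 47.2% in KO. The iNKT to CD44hi ratio of Rpl22l1 was 2.52 in WT (2.12 to 3.004) and 3.97 in KO (3.46 to 4.56), the latter the largest of all measured members in that comparison, while that of Rpl22 was 1.31 (1.18 to 1.45) and 1.20 (1.10 to 1.31). Rpl22 was not lower where Rpl22l1 was higher.

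**Figure D5:**
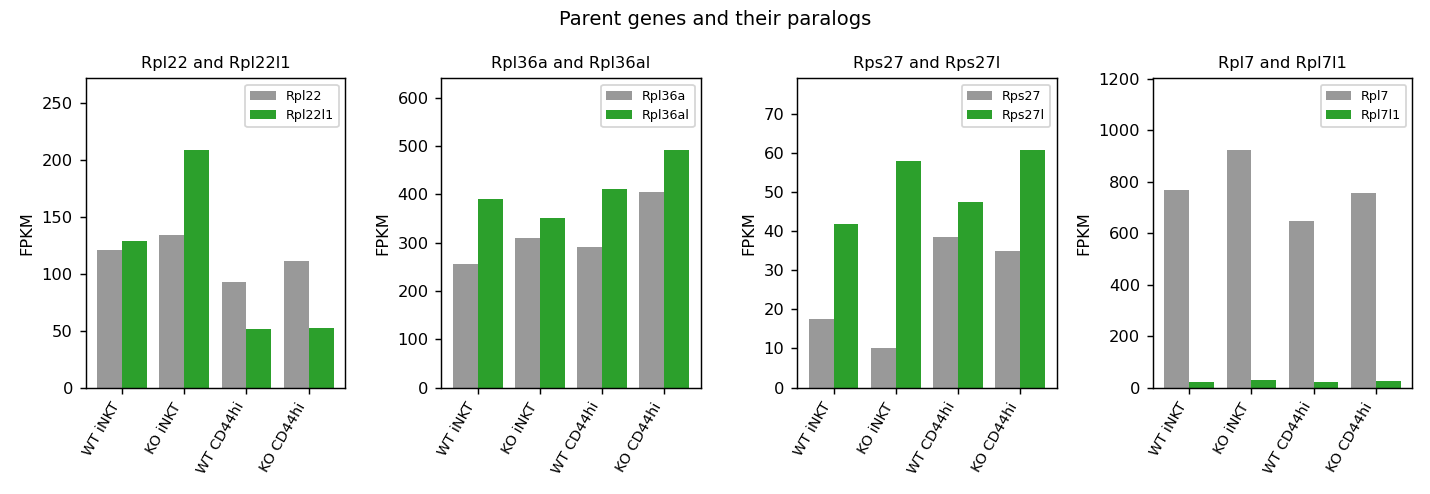
FPKM of 4 parent genes (grey) and their paralogs (green) in the 4 libraries, 1 bar per library. Rpl22l1 exceeds Rpl22 in both iNKT libraries and stays below it in both CD44hi libraries.

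Rpl36al, the paralog of Rpl36a, was above its parent in every library, at 390, 352, 411 and 492 FPKM against 256, 309, 291 and 404 for Rpl36a. Its level as a share of the parent was 152% in WT and 114% in KO iNKT cells, and 141% in WT and 122% in KO CD44hi cells, lower in KO in both cell types. Rps27l, a target of p53, was at 41.7, 57.8, 47.3 and 60.8 FPKM, higher in KO by 1.39-fold in iNKT (1.02 to 1.88) and 1.28-fold in CD44hi (1.11 to 1.48). Its ratio to Rps27 is not informative, since Rps27 was listed at only 9.98 to 38.5 FPKM. Rpl7l1 was at 20.3, 30.3, 19.9 and 24.4 FPKM, or 2.64%, 3.28%, 3.09% and 3.22% of Rpl7. The paralogs known from testis or muscle were at or near 0: Rpl10l was listed at 0 in all 4 libraries, Rpl3l at 0.284 FPKM in KO CD44hi alone, and Rpl39l at no more than 0.644 FPKM. Rps4y2, a symbol that RefSeq lists as a synonym of Rps4l, a copy of Rps4x, lies outside the naming rule and was at 0.525, 0.243, 2.60 and 3.91 FPKM, against 1728, 1977, 990 and 1241 FPKM for Rps4x.

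Of the ribosomal proteins outside the naming rule, Fau and Gnb2l1 differed in direction in iNKT. Fau, made as a fusion of a ubiquitin-like protein with a small subunit protein, was at 1093 FPKM in WT and 825 in KO iNKT cells, and 677 in WT and 737 in KO CD44hi cells. Gnb2l1, the scaffold RACK1 of the small subunit, was at 1095, 1348, 901 and 1025 FPKM in the same order. In iNKT Fau was lower in KO and Gnb2l1 higher, and in CD44hi both were higher in KO.

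Genes that make and use ribosomes showed a different order of the pairs from the ribosomal proteins themselves. Of 48 ribosome assembly factors, 44 were higher in KO iNKT than in WT iNKT and 36 higher in KO CD44hi than in WT CD44hi, against 55.9% and 52.4% of all measured genes. Their medians were 0.40 and 0.13 on the log2(FPKM + 1) scale, and 0 were past 2-fold in either pair, beside 6.08% higher and 3.35% lower among all genes of the iNKT pair and 2.44% and 1.14% among those of the CD44hi pair. Ncl, the nucleolar protein nucleolin, was at 42.2 FPKM in WT and 62.6 in KO iNKT cells, and 54.8 in WT and 63.1 in KO CD44hi cells. Npm1, a nucleolar chaperone, was at 189, 279, 158 and 207 FPKM, and Nop58, a core protein of the particles that methylate ribosomal RNA, at 34.2, 57.9, 40.1 and 50.1 FPKM. Assembly factors thus had the larger median in the iNKT pair, and ribosomal proteins in the CD44hi pair; this contrast between lists was not tested. Between the cell types the assembly factors had a median of -0.13 in WT and 0.08 in KO. The ribosomal proteins were at 0.41 and 0.24 there. Sbds, a late assembly factor, was the 1 of 48 past 2-fold, lower in KO iNKT (23.0 FPKM) than in KO CD44hi (48.8), where 9.07% of all genes were.

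Of 14 genes of RNA polymerase I and its factors, which transcribe ribosomal RNA, 11 were higher in KO iNKT and 8 in KO CD44hi (medians 0.17 and 0.05). Over all genes 55.9% and 52.4% were above 0, and the CD44hi count is close to that share. In these pairs 0 were past 2-fold, beside 6.08% higher and 3.35% lower among all genes in iNKT and 2.44% and 1.14% in CD44hi. Of 38 translation factors and related genes, many with a TOP tract, 32 were higher in KO iNKT and 31 in KO CD44hi (medians 0.21 and 0.11), beside 55.9% and 52.4% of all genes. Nap1l1, a histone chaperone gene with a TOP tract, was the 1 past 2-fold, higher in KO iNKT (63.1 to 129.98 FPKM), where 6.08% of all genes were. Eef1a1, the main elongation factor, was at 3885, 4467, 2831 and 3725 FPKM. Of 17 growth signalling genes, 11 were higher in KO iNKT and 10 in KO CD44hi (medians 0.16 and 0.09), beside the same shares of all genes. Eif4ebp1, a translation inhibitor under mTOR, was the 1 past 2-fold, higher in KO iNKT (3.49 to 9.91 FPKM), where 6.08% of all genes were. Myc, which drives ribosome synthesis, was at 37.4 FPKM in WT and 58.0 in KO iNKT cells, and 29.1 in WT and 45.6 in KO CD44hi cells, higher in KO in both cell types with differences of 0.62 and 0.63. Of 12 measured genes of the p53 pathway, 6 were higher in KO iNKT and 8 in KO CD44hi (medians 0.01 and 0.07), so the list as a whole differed little between genotypes. Sesn2 was 2-fold higher in KO iNKT (1.97 to 5.19 FPKM), where 6.08% of all genes were. Bbc3 was 2-fold higher in WT iNKT than in WT CD44hi (18.8 against 5.81), where 3.65% of all genes were. Cdkn1a was 2-fold lower in KO iNKT than in KO CD44hi (0.525 against 2.21), where 9.07% of all genes were. The 76 mitochondrial ribosomal protein genes, a list added after values were seen, had medians of 0.05 and 0.09 in the genotype comparisons of iNKT and CD44hi, and 0.03 and 0.06 between the cell types in WT and KO.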

How the data were processed

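The authors deposited 1 table of FPKM per library, per the file headers, with a gene symbol in each row. The build mm10 and the tools TopHat 1.3.2, Cufflinks 2.0.2 and Bowtie2 2.0.0 are recorded, per the submitters' processing notes, without their roles. The annotation, strand setting and treatment of reads with several matches are not given in the sources used here, and the TruSeq RNA kit v2 of the labels does not mark strand. The rows of 240 symbols that occur on several rows were summed, and 26 symbols turned into dates and 776 of small RNA genes were left out, except from the file sums behind shares. Differences were taken on the log2(FPKM + 1) scale, which understates those of low genes; a gene counted as measured if either library of a comparison reached 1 FPKM, and as called at 2-fold. Ratios are plain ratios of FPKM.

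Depth came from genes of at least 3000 bases, as the library size that makes their low values whole fragments. Intervals used GENCODE M21 lengths, capped at 1000 bases and shortened by an assumed fragment of 200 bases; they cover counting error only, and do not cover the uncertainty of reads that match copies. Copies are GENCODE pseudogenes sharing at least 1 stretch of 50 bases with the shortest RefSeq-linked transcript. Rps3a was matched through RefSeq's synonym for Rps3a1. Calls and depth were tested on simulated data. Python 3.11.15, numpy 2.4.6, pandas 2.3.3, scipy 1.17.1 and matplotlib 3.10.9 were used.

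Members and lists were chosen with earlier results of these data known. Named were all parents and paralogs, the 5 highest and lowest members, the 5 largest and smallest differences per comparison at 5 FPKM or more, the 3 extreme differences of differences, any member at 0 in 1 library and at 5 FPKM in another, Rpsa and the stalk genes, and up to 4 members past 2-fold of other lists; genes named beyond this (such as Rpl5, Rpl7a, Rpl31, Rps15a, Ncl, Npm1, Nop58, Eef1a1 and Myc) were chosen after their values were seen. Promoter windows from RefSeq on GRCm38.p6 run from 250 bases before to 50 bases after a start. Alternatives changed the pseudocount, filter, scaling, call, shared symbols and pseudogene rows. Not every ribosomal protein outside the naming rule is reported here.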

Additional observations from a re-analysis of the deposited data

Results flagged for a closer look

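Of the measured members, 7 had opposite genotype differences in the cell types, with both counting intervals on their side of a ratio of 1. With 1 library per group the difference between the cell types was not tested. The rule was applied to members only, so no share over all genes stands beside the 7, and they cannot be read as a trait of these genes. On the log2(FPKM + 1) scale the difference of the differences (iNKT minus CD44hi) was -0.52 for Rpl38, -0.52 for Rpl35a, -0.47 for Rpl27, -0.45 for Rpl37a and -0.39 for Rplp2, all of the large subunit, and -0.40 for Rps29 and -0.33 for Rps14 of the small subunit. Each was lower in KO iNKT than in WT iNKT and higher in KO CD44hi than in WT CD44hi.

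Rows named as pseudogenes of members, which the counts of members do not use, summed to 1820 FPKM in KO iNKT against 1683 in WT iNKT, and to 1652 in KO CD44hi against 1385 in WT CD44hi.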

How the results depend on the processing

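With 1 library per group, no library could be left out. No paired analysis was possible because each group has 1 library and the results come from no test. No median over members changed sign. Rescaling by the median ratio moved the median in the iNKT pair from 0.11 to 0.065 and the median difference of differences from -0.14 to -0.18, and rescaling to equal sums moved the median in the CD44hi pair from 0.26 to 0.19. Under the other pseudocount and both rescalings, the sign turned among named members only for differences near 0: at equal sums for Rps16 (0.06 to -0.01) and Rpl22l1 (0.04 to -0.03) in the CD44hi pair, Rpl7l1 between the WT cell types (0.03 to -0.0085) and Rpsa between the KO ones (-0.01 to 0.0097), and by the median ratio for Rps13 in the iNKT pair (0.02 to -0.02) and Rpl28 between the KO cell types (0.0040 to -0.0042). Over all genes rescaling moved the median by less than 0.1. In the iNKT pair the median of the members less that of all genes was 0.06 as deposited and 0.05 by the median ratio. In the CD44hi pair it was 0.25 both as deposited and at equal sums. After rescaling to equal sums 1 member, Rpl39l, was 2-fold lower in KO iNKT, where 0 were as deposited. With a filter at a mean of 10 FPKM, 0 members were 2-fold lower in KO CD44hi, since Rpl26 drops out. At 1.5-fold, 5 members were higher and 1 lower in KO iNKT, 28 were higher in WT iNKT than in WT CD44hi (against 6 at 2-fold), and 18 were higher and 5 lower in KO iNKT than in KO CD44hi (against 5 and 3).

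The share of the members rested on what the sum includes. Without small RNA rows it was 15.4% and 17.0% in WT and KO iNKT cells and 12.0% and 14.1% in WT and KO CD44hi cells, without the 10 highest other rows of any library 14.9%, 16.6%, 11.5% and 13.6%, and with pseudogene rows added 12.3%, 14.4%, 10.2% and 12.2%. Under each of these settings KO was above WT in both cell types. The Rpl22l1 to Rpl22 ratio stayed at 156% in KO iNKT when the highest row of a symbol was kept, a setting chosen after seeing the data. Depth limits Rps27, Rpl21 and Rpl26, which rest on few fragments in the iNKT libraries. Rps27 is limited by shared sequence as well, since only 1.35% of its stretches of 50 bases are found in no other annotated gene.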
